A study of Mus musculus with 3 samples.

Results

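Expression of 10 genes that build the T cell receptor complex or carry its first signals was described in 3 populations of mouse CD8+ T cells. The genes were chosen by symbol: the CD3 chains Cd3d, Cd3e and Cd3g, the CD8 co-receptor chains Cd8a and Cd8b1, and the kinases and adaptors Fyn, Zap70, Lat, Lcp2 and Themis. All 10 were in the deposited table of 10191 genes with a single symbol, each with 1 probe set. The populations, sorted from the spleen and lymph nodes of untreated C57BL/6 mice, were naive CD8+ T cells and innate CD8+ T cells with or without CXCR3, a chemokine receptor whose expression is reported by green fluorescent protein in these mice. The same reporter was thus present in all 3 populations, and the naive population was the control. Antibodies that included those to CD44 and CD8 were used for the sort. Innate is the submitters' word for the cells set apart from naive ones, and the gates, ages and sexes are not given in the sources used here. RNA came from about 3 to 5 mice, and each population was hybridised to 1 array, so a population and its array cannot be told apart.

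The T cell receptor has no signalling domain of its own and depends on the CD3 gamma, delta, epsilon and zeta chains, whose tyrosine-based activation motifs are phosphorylated when the receptor binds antigen. CD8 holds the class I major histocompatibility complex and brings the kinase Lck to the receptor. ZAP-70 then docks on the phosphorylated CD3 chains and phosphorylates the adaptors LAT and SLP-76, on which calcium, Ras and protein kinase C signals are assembled. Naive CD8+ T cells keep this machinery ready, and memory-phenotype CD8+ T cells use the same components.

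Values are log2 expression values made with RMA, a method that corrects background, equalises the distributions of the arrays and gives 1 value per probe set. With 1 array per population there is no standard error, no test and no p-value, and higher or lower refers to the values on these 3 arrays. A gene was counted as different where 2 arrays were 1 or more log2 units (2-fold) apart and the brighter value reached the median gene of its own array. A smaller threshold of 1.5-fold, 0.58 on the log2 scale, was used beside it. The median gene read 7.63 on the CXCR3+ innate, 7.63 on the CXCR3- innate and 7.65 on the naive array, and values of the 10 genes lay between 8.31 and 11.81. In bulk RNA, fewer cells that carry a transcript and less of it per cell cannot be told apart.

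Cd3g and Cd3d are neighbouring genes read from opposite strands, with start sites 1355 bases apart on chromosome 9, and Cd3e is the next gene in the RefSeq table. Upstream sequences are shown for this pair and for Cd8a, the members with the lowest values in CXCR3- innate cells relative to naive cells, and for Lcp2, which on the deposited scale read nearly alike in both innate populations. Each is the 250 bases before the RefSeq start site in GRCm38.p6, printed from 5′ to 3′ along the gene. Capitals mark exact matches on either strand. The letters searched were AGGAAG for the Ets family and TGTGGT for the Runx family. For the Gata family they were AGATAA. For E-boxes they were CACCTG, with CAGCTG searched as a second form. No printed match overlaps another.
Cd3g, chr9:44980432-44980681, minus strand: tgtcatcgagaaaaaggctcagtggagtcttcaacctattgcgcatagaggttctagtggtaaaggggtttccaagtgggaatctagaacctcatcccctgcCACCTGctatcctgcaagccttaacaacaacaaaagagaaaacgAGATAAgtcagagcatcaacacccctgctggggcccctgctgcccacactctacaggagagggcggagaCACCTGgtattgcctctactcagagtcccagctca
Cd3d, chr9:44981536-44981785, plus strand: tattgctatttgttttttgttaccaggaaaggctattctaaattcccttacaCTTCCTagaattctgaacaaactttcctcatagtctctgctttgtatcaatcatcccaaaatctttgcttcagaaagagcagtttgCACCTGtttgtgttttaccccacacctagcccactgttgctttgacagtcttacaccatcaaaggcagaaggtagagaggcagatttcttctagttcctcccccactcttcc
Cd8a, chr6:71373177-71373426, plus strand: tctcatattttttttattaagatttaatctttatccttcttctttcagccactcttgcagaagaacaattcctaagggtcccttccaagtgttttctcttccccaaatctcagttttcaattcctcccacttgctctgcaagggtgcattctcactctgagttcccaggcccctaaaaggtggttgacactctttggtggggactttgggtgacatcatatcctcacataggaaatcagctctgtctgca
Lcp2, chr11:34046678-34046927, plus strand: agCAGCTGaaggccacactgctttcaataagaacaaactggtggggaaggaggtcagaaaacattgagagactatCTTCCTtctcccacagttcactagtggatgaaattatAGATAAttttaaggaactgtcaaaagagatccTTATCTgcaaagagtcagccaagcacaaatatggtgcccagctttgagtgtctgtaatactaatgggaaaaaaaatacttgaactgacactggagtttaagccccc

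In the Cd3g window CACCTG occurred at 148 and at 35 bases before the start site and AGATAA at 104 bases. The Cd3d window held CACCTG at 112 bases and AGGAAG, on the opposite strand, at 198 bases. Thus CACCTG occurred before both of these neighbours, and 17.2% of all 32851 windows of this length in the table hold it. In the Lcp2 window AGATAA occurred at 138 and, on the opposite strand, at 106 bases, AGGAAG on the opposite strand at 175 bases, and CAGCTG at 248 bases. None of the 5 letter strings was in the Cd8a window. The shares of all windows were 29.5% for AGGAAG, 14.0% for TGTGGT, 9.99% for AGATAA and 13.0% for CAGCTG. These matches are descriptions of letters, and binding was not measured. Windows were found for 9 of the 10 genes.

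The CD3 chains differed in how they varied over the populations. Cd3g, encoding CD3 gamma, read 11.10 in naive, 10.72 in CXCR3+ innate and 10.17 in CXCR3- innate cells. This was the widest range of the 10 genes, 0.93 on the log2 scale, with CXCR3- innate cells 1.91-fold and CXCR3+ innate cells 1.30-fold below naive cells. Cd3d, encoding CD3 delta, read 8.83 in naive, 8.83 in CXCR3+ innate and 8.31 in CXCR3- innate cells. Its value was therefore low in the CXCR3- innate population, 1.44-fold below naive cells, and differed by 0.01 between the other arrays. Cd3e, encoding CD3 epsilon, which pairs with either gamma or delta, read 11.81 in naive, 11.45 in CXCR3+ innate and 11.51 in CXCR3- innate cells. Both innate values of Cd3e lay below the naive one, by 1.28-fold and 1.23-fold. The difference of its CXCR3- innate value from naive was -0.30, and -0.14 after quantile normalization or -0.18 after cyclic loess.

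Between the innate populations the neighbours Cd3g and Cd3d were higher in CXCR3+ cells by 0.55 and 0.53 on the log2 scale, whereas Cd3e differed by -0.06, or by -0.23 after quantile normalization. Relative to Cd3e on the same array, Cd3g was 0.61 and Cd3d 0.59 higher in CXCR3+ than in CXCR3- innate cells. Set against each other, Cd3g and Cd3d differed by 0.02 in this comparison. Against naive cells the pair did not move alike, since Cd3g relative to Cd3d was lower by -0.39 in CXCR3+ and -0.41 in CXCR3- innate cells.

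The CD8 co-receptor is a dimer of alpha chains or of alpha and beta chains, and the alpha chain binds Lck. Cd8a read 10.43 in naive, 10.14 in CXCR3+ innate and 9.77 in CXCR3- innate cells. The order of Cd8a was that of Cd3g, with CXCR3- innate cells lowest at 1.58-fold and CXCR3+ innate cells at 1.22-fold below naive cells. Cd8b1, encoding the beta chain, read 11.54 in naive, 11.31 in CXCR3+ innate and 11.29 in CXCR3- innate cells. The innate values of Cd8b1 differed by 0.02, a sign that turned after quantile normalization and cyclic loess, and both were below the naive value, by 1.18-fold in CXCR3+ and 0.26 on the log2 scale in CXCR3- cells. Relative to Cd8b1 on the same array, the difference of Cd8a from naive cells was -0.41 in CXCR3- innate and -0.05 in CXCR3+ innate cells. All 3 populations were sorted with an antibody to CD8, and the antibody and these transcripts are separate measurements.

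**Figure D1:**
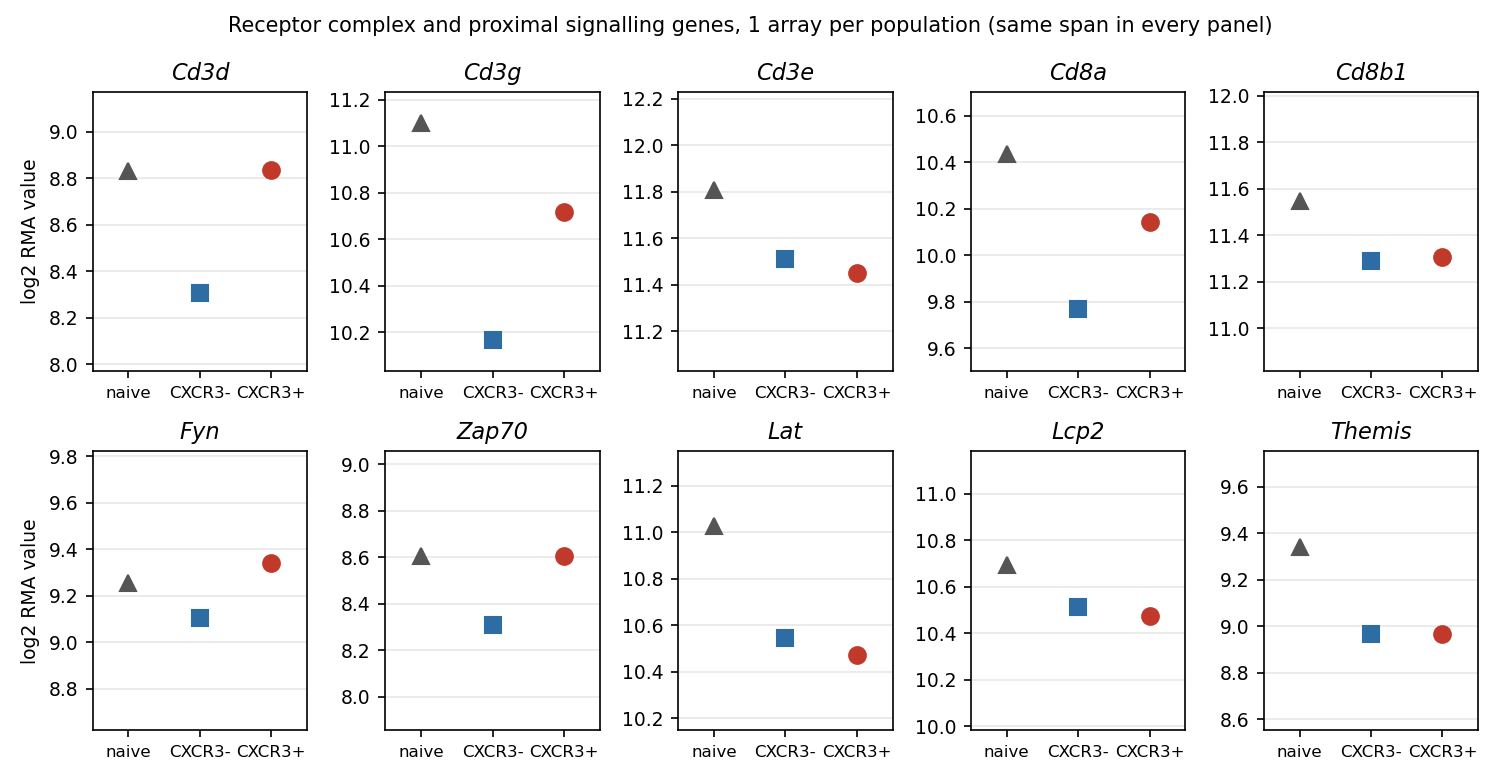
Log2 RMA values (vertical axes, same span in every panel) of the 10 genes in naive (triangle), CXCR3- innate (square) and CXCR3+ innate (circle) CD8+ T cells, 1 array each and therefore without error bars. Cd3d and Zap70 read low in CXCR3- innate cells alone, Cd3g and Cd8a stepped down from naive to CXCR3+ to CXCR3- innate cells, and Cd3e, Cd8b1, Lat, Lcp2 and Themis read about equally below naive in both innate populations on this deposited scale. After quantile normalization Lcp2 in CXCR3- innate cells was above naive, and Cd3e, Lat and Lcp2 were at least 0.21 lower in CXCR3+ than in CXCR3- innate cells.

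Fyn and Zap70 are the kinases of the set. Fyn, a Src-family kinase that with Lck phosphorylates the CD3 chains, read 9.26 in naive, 9.34 in CXCR3+ innate and 9.10 in CXCR3- innate cells. Fyn was the gene of the 10 with the highest CXCR3+ innate value relative to naive cells, by 0.08, and its CXCR3- innate value was 1.11-fold below naive. Zap70, the kinase that docks on CD3, read 8.60 in naive, 8.60 in CXCR3+ innate and 8.31 in CXCR3- innate cells. The naive and CXCR3+ innate values of Zap70 were identical, and the CXCR3- innate value was 1.23-fold below both. Identical values were frequent in this table, where 34.2% of probe sets did not vary over the 3 arrays, so they do not show equal expression.

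The adaptors had innate values below the naive ones on the deposited scale, Lcp2 excepted after quantile normalization. Lat, the membrane scaffold phosphorylated by ZAP-70, read 11.03 in naive, 10.47 in CXCR3+ innate and 10.55 in CXCR3- innate cells. Lat had the lowest CXCR3+ innate value relative to naive of the 10 genes, 1.47-fold below, and was 1.40-fold below in CXCR3- innate cells. Lcp2, encoding SLP-76, which joins LAT through the bridging adaptor Gads, read 10.69 in naive, 10.47 in CXCR3+ innate and 10.51 in CXCR3- innate cells. The innate values of Lcp2 were 1.16-fold and 1.13-fold below naive, and under quantile normalization the CXCR3- innate value was 0.0589 above naive. Themis, a protein that tunes receptor signals in developing thymocytes, read 9.34 in naive and 8.97 in each innate population, 1.29-fold below naive in both.

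In CXCR3+ innate minus naive, 7 of the 10 genes read lower, 2 higher and 1 equal, with a median difference of -0.27 against 0.00 over all genes. Of all genes, 34.2% read lower and 45.0% were equal in that comparison. With quantile normalization, cyclic loess or median centring 7 of the 10 were lower and 3 higher. None of the 10 reached 2-fold, which 0.236% of all genes did in either direction, and none reached 1.5-fold, which 1.2% did. On the CXCR3- innate array all 10 were below their naive values, the median difference being -0.34 where that of all genes was 0.00. Under quantile normalization 9 were and the median was -0.21. Of all genes, 36.3% read lower and 42.1% were equal in that comparison as deposited. None of the 10 reached 2-fold, against 0.245% of all genes. Cd3g and Cd8a were past 1.5-fold, both lower, beside 1.7% of all genes in either direction and 1.6% lower. Among the 1668 genes at or above 8.51, the lowest mean level of the 10, 115 were lower by 1.5-fold and 2 higher. After quantile normalization Cd3g kept its place at -0.75, while Cd8a, at -0.45, was no longer past 1.5-fold. The smaller differences shrank with that scaling too, to -0.41 for Cd3d, -0.30 for Lat, -0.23 for Themis, -0.18 for Zap70 and -0.0030 for Fyn. Cd8b1 was at -0.15 after cyclic loess. Both comparisons use the same naive array.

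Genes with high values tended to read lower in the innate populations, and above all in CXCR3- innate cells. Among the 1668 genes at or above 8.51, the lowest mean level among the 10, the median difference from naive cells was -0.08 in CXCR3+ and -0.16 in CXCR3- innate cells. Of them, 1072 read lower and 307 higher than naive in CXCR3+ innate cells, and 1195 lower and 257 higher in CXCR3- innate cells. The naive array held the highest value in 58.4% of these 1668 genes, and in 7 of the 10. The CXCR3- innate array held the lowest value in 46.8% of them, and in 6 of the 10. Each gene was therefore also set beside the 500 genes nearest to it in mean level. For CXCR3- innate minus naive, 12 of its 500 neighbours had a lower difference than Cd3g, and the median of the 500 was -0.23. For Cd3d 28 genes had a lower difference, for Cd8a 46, for Themis 96, for Zap70 97 and for Lat 102. Fyn, Cd8b1, Cd3e and Lcp2 lay nearer the middle of their neighbours in level, with 259, 232, 199 and 286 genes below them. In these terms Cd3g, Cd3d and Cd8a stood low in CXCR3- innate cells, and Fyn lay near the middle. Cd3e, Cd3g, Cd8b1, Lat and Lcp2 stood at about the 98.5th percentile or higher on each array, and Cd8a between the 97.5th and 98.5th. Most of their 500 neighbours were therefore dimmer, in every comparison. For these brightest genes the ranks do not show what is common at their own level.

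For CXCR3+ innate minus naive, 18 of the 500 genes nearest in level had a lower difference than Lat, 47 than Themis, 51 than Cd3g and 66 than Cd3e. For Cd8a the number was 104, for Cd8b1 150 and for Lcp2 171. Cd3d and Fyn were on the other side, with 425 and 448 of 500 genes below them. Zap70 had 287 genes below it and 138 equal to it.

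**Figure D2:**
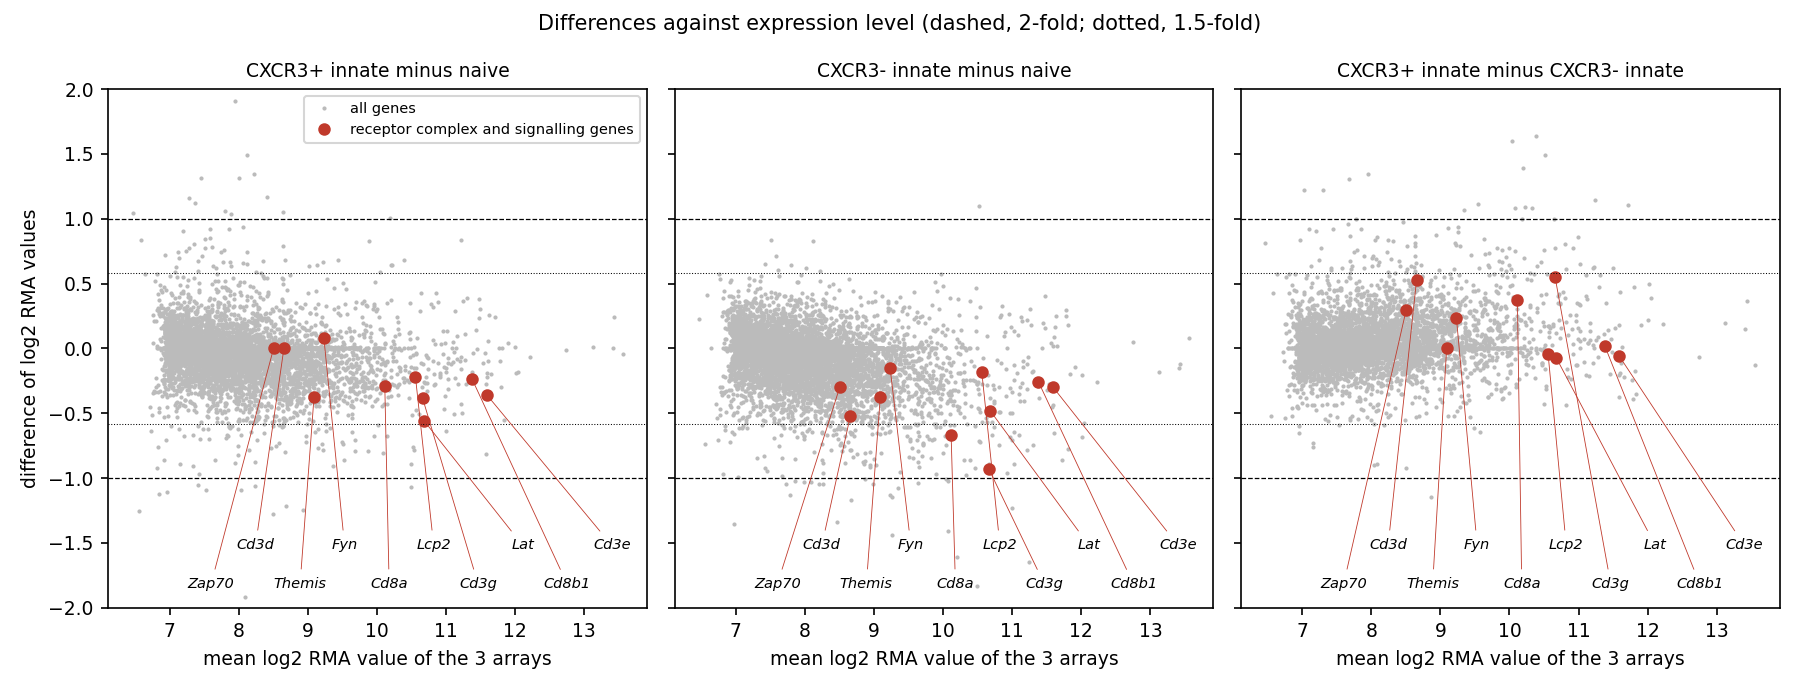
Difference of log2 RMA values (vertical axis) against the mean log2 RMA value of the 3 arrays (horizontal axis) for all genes (grey) and the 10 named genes (red), in each of the 3 comparisons, with 2-fold (dashed) and 1.5-fold (dotted) lines. In the middle panel Cd3g, at -0.93, and Cd8a, at -0.66, lie below the lower 1.5-fold line, and in the other panels none of the 10 crosses it. The vertical axis leaves out 3 genes in the first panel and 1 in the second.

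Between the innate populations, 6 of the 10 genes were higher in CXCR3+ cells, 3 were lower and 1 was equal, with a median of 0.13 against 0.00 over all genes. Of all genes, 49.0% were equal in that comparison. Among the 1668 genes at or above 8.51, 869 were higher and 442 lower in CXCR3+ cells. After quantile normalization or cyclic loess 5 of the 10 were higher and 5 lower, as Cd8b1 and Themis then lay below 0. None of the 10 was past 2-fold, against 0.157% of all genes, or past 1.5-fold, against 1.08%. The 5 genes with the largest positive differences were Cd3g at 0.55, Cd3d at 0.53, Cd8a at 0.37, Zap70 at 0.30 and Fyn at 0.24. Of the 500 genes nearest in level, 487 had a lower difference than Cd3d, 458 than Zap70, 447 than Cd3g, 420 than Cd8a and 413 than Fyn. As deposited, the other genes lay within 0.08 of 0, at -0.08 for Lat, -0.06 for Cd3e, -0.04 for Lcp2, 0.00 for Themis and 0.02 for Cd8b1. After quantile normalization Lat was at -0.24, Cd3e at -0.23 and Lcp2 at -0.21, as far from 0 as Cd8a at 0.24 and farther than Fyn at 0.17. Of the 6 genes that were higher in CXCR3+ cells, Cd3g, Cd3d, Cd8a, Zap70 and Fyn stayed above 0 under each of the 3 other scalings run. Cd8b1 did not, at -0.07 after quantile normalization and after cyclic loess.

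The genes most like Cd3g over the 3 arrays were found among 335 genes within 1 log2 unit of its mean level, by the Euclidean distance of the centred values. Rps3a1, a ribosomal protein gene, was nearest at a distance of 0.07 and read 10.68 in naive, 10.40 in CXCR3+ innate and 9.82 in CXCR3- innate cells. H4c12, a histone gene, followed at 0.08, with 10.24, 9.83 and 9.40 in the same order. Snora73b, a small nucleolar RNA, was at 0.09, with 10.32, 10.02 and 9.35. With only 3 arrays, many genes share such an order, which 33.6% of the 1668 genes at these levels did.

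Other genes of the pathway were read from lists ordered by role, of which 65 of 83 were measured. Lck, Cd247 (CD3 zeta) and the receptor constant genes Trac, Trbc1 and Trbc2 were not analysed here. Against naive cells, 37 of the 65 read lower and 11 higher on the CXCR3+ innate array, with a median of -0.04 and 3 genes past 1.5-fold, all lower, beside 1.2% of all genes. On the CXCR3- innate array 45 read lower and 6 higher, with a median of -0.13 and 1 gene past 1.5-fold, also lower, beside 1.7% of all genes. Between the innate populations 31 read higher and 16 lower in CXCR3+ cells, none was past 1.5-fold, beside 1.08% of all genes, and the median was 0.00. With the brightest probe set per gene, Slamf6 was lower by over 1.5-fold as well, making 4 genes in CXCR3+ innate minus naive and 1 between the innate populations. Of all genes, 34.2%, 36.3% and 22.3% read lower in these 3 comparisons. The splits of the 65 depended on the scaling, because many genes were equal as deposited. After quantile normalization they were 32 lower and 33 higher, 39 lower and 26 higher, and 23 higher and 42 lower in these 3 comparisons.

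Among receptor chains, Trat1, encoding the receptor-associated adaptor TRIM, read 7.51 in naive, 7.09 in CXCR3+ innate and 7.40 in CXCR3- innate cells. Ptcra, the pre-receptor alpha chain of thymocytes, read 7.73 in naive and 7.75 in each innate population. Of the 5 other proximal kinases measured, 4 read lower and 1 was equal against naive cells in each innate population, and after quantile normalization 3 read lower in CXCR3+ and 4 in CXCR3- innate cells. Csk, which inhibits Src-family kinases, read 8.82 in naive, 8.74 in CXCR3+ innate and 8.36 in CXCR3- innate cells. Map4k1, encoding HPK1, a kinase that restrains SLP-76, read 8.64, 8.60 and 8.34 in that order, with the CXCR3+ innate value 0.05 above naive after quantile normalization. Like Cd3d and Zap70, these genes read low mainly in the CXCR3- innate population. Prkcq, protein kinase C theta, read 10.20 in naive and 9.89 in each innate population, and Pdpk1 read 8.43, 8.33 and 8.31.

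Adaptors and effectors beyond the 10 genes numbered 32. In CXCR3+ innate minus naive 17 of them read lower, 4 higher and 11 equal (17 lower and 15 higher after quantile normalization), with 1 past 1.5-fold. That gene was Grap2, encoding Gads, the bridge between LAT and SLP-76, which read 10.30 in naive, 9.51 in CXCR3+ innate and 9.82 in CXCR3- innate cells, 1.73-fold and 1.39-fold below naive. Gads joins the proteins of Lat and Lcp2, whose values are given above. In CXCR3- innate minus naive 21 read lower, 1 higher and 10 equal (20 lower and 12 higher after quantile normalization), and Vav1 was past 1.5-fold, though not after quantile normalization or cyclic loess. Vav1, a Rac exchange factor recruited by SLP-76, read 9.02 in naive, 8.76 in CXCR3+ innate and 8.40 in CXCR3- innate cells, 1.54-fold below naive in the last. Pik3cd, the phosphoinositide 3-kinase delta catalytic subunit, read 9.01, 8.62 and 8.49 in that order, and Sos1, a Ras exchange factor, read 7.81, 7.33 and 7.56.

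Phosphatases and brakes held 15 measured genes, of which 9 read lower and 4 higher than naive in CXCR3+ innate cells and 10 lower and 4 higher in CXCR3- innate cells. After quantile normalization these were 7 and 8, and 9 and 6. Dgka, a diacylglycerol kinase that limits Ras signals, read 12.08 in naive, 11.53 in CXCR3+ innate and 11.89 in CXCR3- innate cells, and passed 1.5-fold in CXCR3+ innate minus naive after quantile normalization. Ptpn6, encoding the phosphatase SHP-1, read 9.11, 9.15 and 8.82 in that order, and Ptpn11, encoding SHP-2, read 7.96, 7.65 and 7.64. Spry2, an inhibitor of Ras signals, went the other way, at 6.17 in naive and 6.58 in CXCR3- innate cells and 0.83 above naive in CXCR3+ innate cells, with every value below the median gene of its array.

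Accessory receptors numbered 11, of which 6 read lower and 2 higher than naive in CXCR3+ innate cells (4 and 7 after quantile normalization) and 9 lower and 0 higher in CXCR3- innate cells (5 and 6). Cd226, a co-stimulatory adhesion receptor, read 8.77 in naive, 7.71 in CXCR3+ innate and 8.24 in CXCR3- innate cells, 2.09-fold below naive in CXCR3+ innate cells. Slamf1, a self-binding receptor of lymphocytes, read 7.76, 7.14 and 7.57 in that order and was also past 1.5-fold in CXCR3+ innate minus naive, though not after an offset of 16 was added to the linear values. Slamf6, of the same family, read 8.36, 7.87 and 8.21, a mean of 2 probe sets, and Cd84 read 8.60, 8.34 and 8.48, its CXCR3- innate value being above naive after quantile normalization. In these 4 genes the CXCR3+ innate value was the lowest, whereas in Cd3g and Cd8a the CXCR3- innate value was. They were picked by size of difference. Of all 11, 6 read higher, 4 lower and 1 equal in CXCR3+ relative to CXCR3- innate cells (3 higher and 8 lower after quantile normalization).

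**Figure D3:**
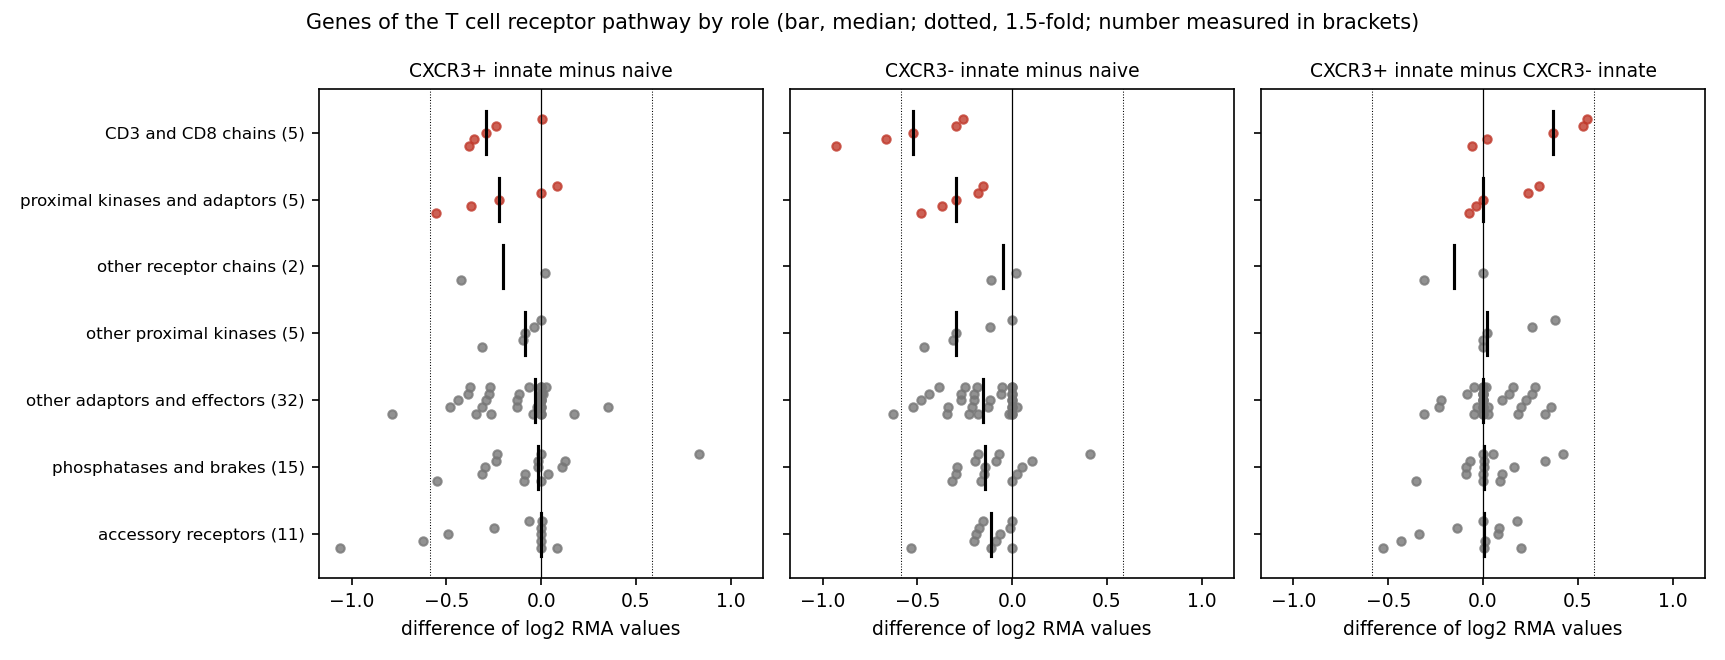
Differences of log2 RMA values (horizontal axes) for every measured gene of the receptor pathway, by role, in the 3 comparisons, with 1 point per gene, the median of each list as a bar and 1.5-fold as dotted lines. The CD3 and CD8 chains had list medians of -0.29, -0.52 and 0.37 from left to right, and the proximal kinases and adaptors of the set -0.22, -0.30 and 0.00.

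The sort genes and markers of other cells were read on the same arrays. From naive to CXCR3- to CXCR3+ innate cells, Cxcr3 read 7.57, 7.82 and 7.97 and Cd44 read 7.24, 7.88 and 8.30. Few markers of other cells had values: 1 of 12 B cell, 2 of 7 CD4 and regulatory T cell, 3 of 8 natural killer, 1 of 7 gamma-delta T cell, 3 of 10 dendritic cell, 5 of 10 myeloid and 0 of 6 erythroid genes. Cd4, Klrb1c, Trdc, Itgax and Lyz2, which define some of these cells, were not among them. The log2 of the summed values of B cell genes was 8.26 on the CXCR3+ innate, 8.34 on the CXCR3- innate and 8.07 on the naive array. In that order it was 8.27, 8.57 and 8.41 for CD4 and regulatory T cell genes. For dendritic cell genes it was 8.68, 8.73 and 8.65, for myeloid genes 9.87, 9.99 and 9.90, and for gamma-delta T cell genes 7.75, 7.79 and 7.75. In these 5 lists the CXCR3- innate array had the highest sum, the B cell and gamma-delta T cell sums each being of 1 gene. Of the 10 genes, Cd3g, Cd3d, Cd8a, Cd8b1, Zap70 and Fyn were lowest in CXCR3- innate cells as deposited. Cd3e, Lat and Lcp2 were lowest in CXCR3+ innate cells, and Themis read the same in both. The part of other cells in those differences was not tested. Natural killer genes gave 11.06, 10.26 and 10.22, mostly from Il2rb, which T cells also express.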

How the data were processed

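Total RNA of 3 sorted CD8+ T cell populations was hybridised to 1 Affymetrix array each, after biotin labelling, per the labels' protocols. Per the submitters' processing notes, the authors made the deposited log2 values in Affymetrix Expression Console by RMA. Its version and the genome build are not given in the sources used here. The table held 12417 probe sets with a highest value of at least 7.00002, so genes dim on all arrays have no value. The platform annotation gave 1 symbol for 10576 probe sets, several for 1108 and none for 733. Only the first kind was used, and the probe sets of 273 genes were averaged, giving 10191 genes. The number of arrays limits the precision.

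Differences of log2 values were set against thresholds of 2-fold and 1.5-fold, with the higher value at or above its array's median. Only the 2-fold threshold, without the condition on the median, was checked first, on simulated data with an assumed noise. The 1.5-fold threshold was not checked in that way. The 10 genes and the lists were chosen with earlier results of these data known. Named were all 10 genes, up to 4 genes per list with the largest absolute difference, the sort genes and the 3 genes most like the gene of widest range. Alternatives were quantile normalization, cyclic loess, median centring, keeping the brightest probe set of a gene, adding 16 to the linear values, other filters on dim genes and other fold thresholds. All were applied to the deposited values, which lack probe sets dim on all arrays. The quantile normalization used here therefore did not repeat the step within RMA. Upstream sequences came from RefSeq, GRCm38.p6. Cyclic loess was run with limma 3.58.1 in R 4.3.3, and all else with pandas 2.3.3 and numpy 2.4.6 in Python 3.11.15.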

Additional observations from a re-analysis of the deposited data

Results flagged for a closer look

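Among the 10 genes and the named genes of the other lists, 3 went in opposite directions in the innate populations relative to naive cells as deposited. The share of all genes that did so was not counted. Cd3d read 0.01 above naive in CXCR3+ and -0.52 relative to naive in CXCR3- innate cells, a difference of 0.53 between the innate populations. After quantile normalization its CXCR3- innate value was -0.41 relative to naive. Fyn read 0.08 above naive in CXCR3+ and -0.15 in CXCR3- innate cells, a difference of 0.24, but its CXCR3- innate value was -0.0030 relative to naive after quantile normalization. Ptpn6 read 0.04 above naive in CXCR3+ and -0.29 in CXCR3- innate cells, a difference of 0.33. The list depends on the scaling. Zap70, equal to naive in CXCR3+ innate cells as deposited, was there 0.08 above naive after quantile normalization and 0.03 after cyclic loess. In CXCR3- innate cells Zap70 was then at -0.18 and -0.26. Of the other pathway genes measured, Malt1 (0.17 and -0.05), Pik3r1 (0.0079 and -0.017) and Cblb (-0.015 and 0.053) also went in opposite directions by small amounts. With 1 array per population these differences were not tested, and the positive values of Cd3d, Fyn and Ptpn6 are small.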

How the results depend on the processing

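The count of the 10 genes past 2-fold was 0 in each comparison under every alternative scaling and filter run, and 2 in CXCR3- innate minus naive at 1.5-fold. The count past 1.5-fold in CXCR3- innate minus naive, 2 as reported, was 1 after quantile normalization, because Cd8a no longer passed. The median difference of the 10 genes in that comparison was -0.21 after quantile normalization, against -0.34 as deposited. Among single genes, Lcp2 in CXCR3- innate minus naive was 0.0589 after quantile normalization, against -0.18, and Cd8b1 in CXCR3+ innate minus CXCR3- innate was -0.0697 after quantile normalization and -0.0709 after cyclic loess, against 0.02. Fyn in CXCR3- innate minus naive was -0.0030 after quantile normalization, against -0.15. No scaling moved the median of all genes by more than 0.02. No paired analysis was possible because each population has 1 array, and for the same reason no array could be left out. Small differences between arrays cannot be told from array noise here.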
